A study of Mus musculus with 1012 samples.

Results

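The glucocorticoid receptor gene Nr3c1 and 9 genes known to respond to glucocorticoid hormone (Fkbp5, Zbtb16, Tsc22d3, Per1, Sgk1, Errfi1, Hsd11b1, Mt1 and Mt2) were followed in mouse adipose stem and progenitor cells (ASPCs) before and after an adipogenic cocktail that contains dexamethasone. These 10 genes were picked by name, as textbook members of the response, from the 30452 features of the count table. They were chosen with earlier results of these data known. All 10 passed the filter on low counts. Zbtb16 passed it only through the cells taken after the cocktail, and Hsd11b1 only through the progenitors before and after it.

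The series profiled single cells by Live-seq, in which a fluid-force microscope probe withdraws cytoplasm from a cell that stays alive, and by conventional scRNA-seq of dissociated, whole cells, both with full-length Smart-seq2 chemistry. Primary ASPCs came from the subcutaneous fat of female C57BL/6J mice aged 7 to 10 weeks, and were profiled untreated (ASPC_Pre) or after 2 days in medium with dexamethasone, a synthetic glucocorticoid, the phosphodiesterase inhibitor IBMX, insulin and the PPARG agonist rosiglitazone (ASPC_Post). A reference group was IBA, an immortalized brown preadipocyte line derived from young male C57BL6/J mice. The others were RAW264.7 macrophage-like cells without (RAW_Mock) or with (RAW_LPS) lipopolysaccharide. Live-seq extracts of RAW_LPS were taken 4 to 5 h after lipopolysaccharide, and the study states no time for the scRNA-seq cells. Most RAW cells were of the RAW-G9 clone, which carries a Tnf-mCherry reporter and a relA-GFP fusion, and some were wild-type. The medium of every group held foetal bovine serum. Shortly before Live-seq extraction the medium was exchanged for fresh medium, which for ASPC_Post held the same 4 agents again. Some ASPCs were lentivirally barcoded and carried GFP, and the labels pair the Live-seq extracts of 9 ASPCs taken both before and after the cocktail. Because the 4 agents were given together, the effect of dexamethasone cannot be told apart from that of the other agents.

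Glucocorticoids cross the plasma membrane and bind the receptor encoded by Nr3c1, which is held in the cytoplasm by heat shock protein chaperones. The bound receptor enters the nucleus and switches on genes that hold its response element nearby, while it lowers many inflammatory genes through other transcription factors. In preadipocytes dexamethasone is a standard part of differentiation cocktails, in which it acts early, together with cyclic AMP, before PPARG takes over.

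Promoter windows are shown for Sgk1, Tsc22d3, Mt1 and Mt2, a single window for each gene, picked because it held matches to a receptor or metal motif. Each window is the RefSeq sequence (GRCm38.p6) from 250 bases before to 50 bases after an annotated start, printed 5′ to 3′ on the gene's strand. In the table of 32851 windows, 17 belonged to 8 of the 10 genes. The receptor hexamer AGAACA is in capitals in the Sgk1 and Tsc22d3 windows, where it can also be read from the other strand as TGTTCT. In the Mt1 and Mt2 windows the capitals mark the core of the metal response element, a site that the metal-sensing factor MTF1 is known to bind. That core was searched as TGCACNC and, in its other common form, as TGCGCNC. The motifs do not overlap each other here and both strands were searched.
Sgk1, chr10:21993640-21993939, plus strand: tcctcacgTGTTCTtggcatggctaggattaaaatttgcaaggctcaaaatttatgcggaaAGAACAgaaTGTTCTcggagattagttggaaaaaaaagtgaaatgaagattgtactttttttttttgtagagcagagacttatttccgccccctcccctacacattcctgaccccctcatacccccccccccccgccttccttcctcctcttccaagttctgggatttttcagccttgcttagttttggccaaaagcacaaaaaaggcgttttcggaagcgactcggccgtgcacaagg
Tsc22d3, chrX:140600473-140600772, minus strand: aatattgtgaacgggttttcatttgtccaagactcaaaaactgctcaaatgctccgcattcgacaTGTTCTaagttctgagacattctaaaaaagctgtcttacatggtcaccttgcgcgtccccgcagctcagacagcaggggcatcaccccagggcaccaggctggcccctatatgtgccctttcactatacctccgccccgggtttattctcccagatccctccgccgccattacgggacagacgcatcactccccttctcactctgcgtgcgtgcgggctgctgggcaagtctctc
Mt1, chr8:94178839-94179138, plus strand: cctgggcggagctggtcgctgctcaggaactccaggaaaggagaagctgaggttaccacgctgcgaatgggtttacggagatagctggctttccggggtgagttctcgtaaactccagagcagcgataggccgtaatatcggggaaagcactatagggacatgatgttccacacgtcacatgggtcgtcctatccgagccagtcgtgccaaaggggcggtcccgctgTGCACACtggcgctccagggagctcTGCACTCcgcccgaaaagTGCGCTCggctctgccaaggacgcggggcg
Mt2, chr8:94172368-94172667, plus strand: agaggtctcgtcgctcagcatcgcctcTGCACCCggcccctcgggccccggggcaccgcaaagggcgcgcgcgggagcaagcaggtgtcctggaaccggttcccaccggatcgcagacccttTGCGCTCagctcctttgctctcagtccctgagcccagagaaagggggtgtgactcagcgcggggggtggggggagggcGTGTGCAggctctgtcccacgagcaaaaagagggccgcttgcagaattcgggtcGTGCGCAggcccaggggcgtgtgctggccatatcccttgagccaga

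The Sgk1 window held 3 receptor hexamers, starting at bases 9, 62 and 71 of the window, where 6233 of the 32851 windows held at least 1. The hexamers at 62 and 71 face each other across 3 bases, the arrangement of a full receptor element, which was found in 3 windows (0.00913%). It is 1 of several annotated Sgk1 windows, others of which held 1 hexamer or 0. The Tsc22d3 window held 1 hexamer, at base 66. The Mt1 window held 3 metal cores close to the start and the Mt2 window held 4, spread over its length. At least 1 metal core was in 25.7% of windows, 2 or more in 7.11% and 4 or more in 0.517%. No window of Fkbp5, Per1, Errfi1, Hsd11b1, Mt1 or Mt2 held a receptor hexamer. Single metal cores also lay in windows of Hsd11b1, Per1 and Sgk1 that are not printed. A match describes the letters in the window and was not tested for binding.

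The comparison of ASPC_Pre with ASPC_Post asks how the genes stood before and after the cocktail, and whether both techniques recorded it. It rested on 43 ASPC_Pre and 37 ASPC_Post cells of Live-seq batch 9_4 and on 44 ASPC_Pre and 35 ASPC_Post cells of scRNA-seq batch 9_1. The total counts of these libraries ran from 155123 to 2000873. Median detected genes were 6153 and 5789 in Live-seq, and 9707.5 and 9280 in scRNA-seq, before and after the cocktail. Levels are CPM, the counts of a gene in the summed cells of a group scaled to a total of 1000000 kept counts. Intervals are exact 95% Poisson or binomial intervals. They reflect the counting of reads alone, and the reads carry no molecular identifiers that would mark separate molecules. The median mitochondrial share of counts moved with the cocktail, from 3.03% to 8.20% in Live-seq and from 3.64% to 8.71% in scRNA-seq, and its part in the results was not tested.

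All 9 glucocorticoid-responsive genes had higher CPM after the cocktail than before in both techniques, by 2.38-fold or more. The receptor gene had lower CPM after the cocktail in Live-seq and higher CPM in scRNA-seq. Zbtb16 was without a count in every untreated progenitor. Per kilobase of exon, Mt1 had the highest level of the 10 after the cocktail, 2710 CPM per kilobase in Live-seq and 2793 in scRNA-seq, ahead of Mt2 (1086 in scRNA-seq) and Errfi1 (436.6 and 328.04). The plot of single cells shows how far these shifts were shared between cells.

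**Figure D1:**
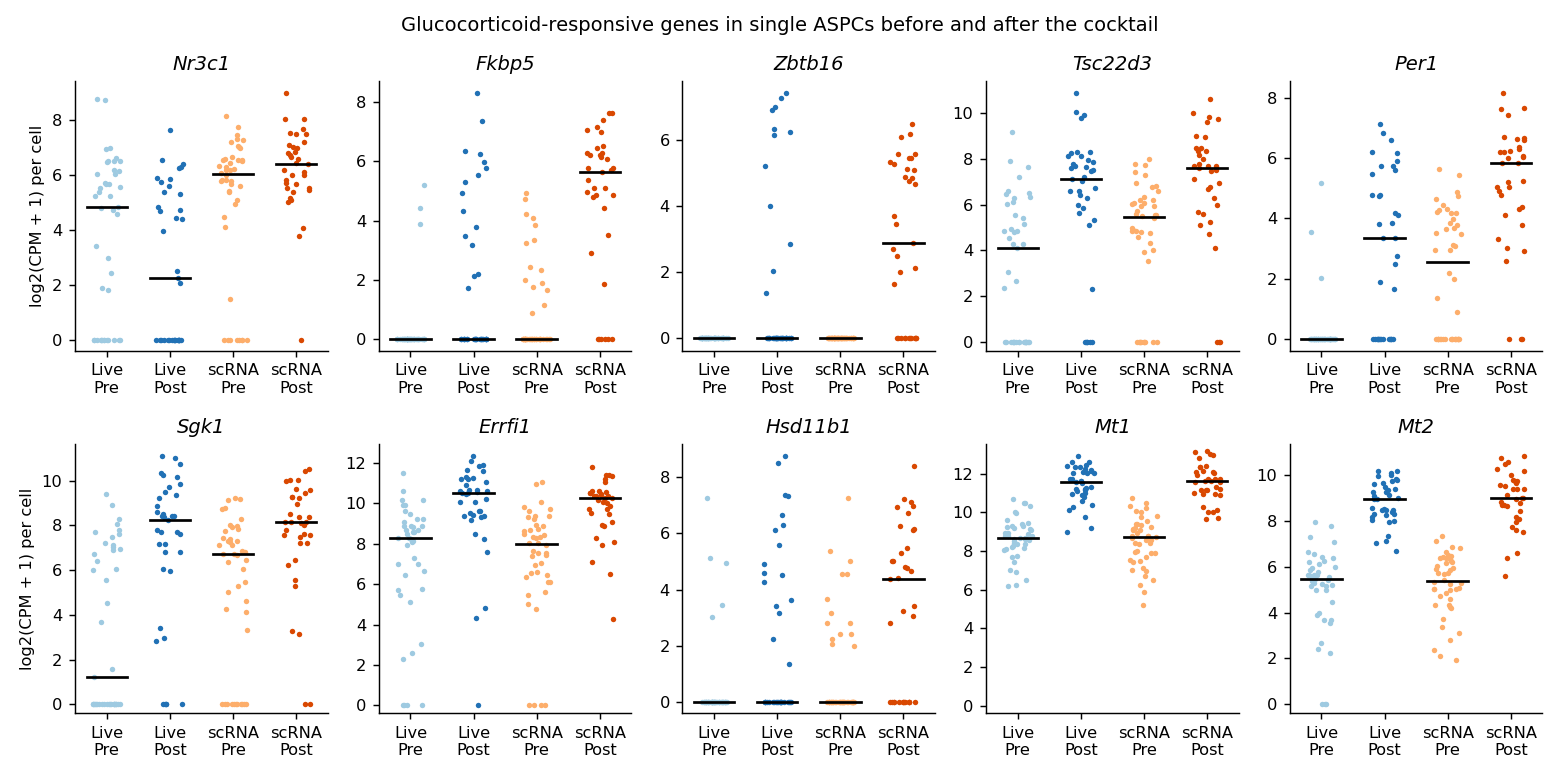
Level of the 10 genes in single ASPCs of Live-seq batch 9_4 and scRNA-seq batch 9_1, as log2(CPM + 1), before (Pre) and after (Post) the cocktail. Each point is a cell (43, 37, 44 and 35 cells from left to right) and the black line is the median. Mt1 and Mt2 nearly separate by state, whereas Zbtb16 lies at 0 in every Pre cell and in part of the Post cells.

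Nr3c1 encodes the receptor through which dexamethasone acts. In Live-seq, Nr3c1 stood at 51.05 CPM before (lowest cell 0, median 27.6, highest 436.2) and at 27.2 CPM after (0, 3.79 and 199.6), a ratio of 0.533 (0.473 to 0.600). In scRNA-seq it stood at 73.9 CPM before (0, 65.01 and 285.7) and 106.1 CPM after (0, 84.1 and 505.3), a ratio of 1.44 (1.34 to 1.53). The cells overlapped almost entirely in both techniques, and 0 of 37 and 1 of 35 ASPC_Post cells lay above the highest ASPC_Pre cell. Reads of the receptor were found in 69.8% and 54.1% of Live-seq cells, and in 81.8% and 97.1% of scRNA-seq cells, before and after.

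Fkbp5 (chromosome 17, 28399094 to 28517527, minus strand) encodes a co-chaperone that lowers the hormone affinity of the receptor and so closes a negative feedback loop. In Live-seq its level was 1.45 CPM before (lowest and median cell 0, highest 36.03) and 23.8 CPM after (0, 0 and 314.6), a ratio of 16.4 (10.8 to 26.3). In scRNA-seq it was 3.78 CPM before (0, 0 and 29.2) and 60.8 CPM after (0, 49.2 and 200.02), a ratio of 16.1 (12.98 to 20.1). The ASPC_Pre level in Live-seq came from 23 counts in 3 of 43 cells, 43.5% of them in 1 cell. The Live-seq ratio thus has a small base. The share of cells with a count went from 6.98% to 43.2% in Live-seq and from 34.1% to 82.9% in scRNA-seq. Of the ASPC_Post cells, 8 of 37 and 22 of 35 exceeded every ASPC_Pre cell, so the groups overlapped more in Live-seq. Thinning each cell to 50000 kept counts left shares of 4.65% and 32.4% in Live-seq and of 9.09% and 68.6% in scRNA-seq. The gene overlaps other annotated genes, Gm22146 on the opposite strand among them, and reads were counted without regard to strand. The effect of these overlaps on its counts was not tested.

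Zbtb16 (chromosome 9, 48654297 to 48836222, minus strand) encodes the zinc finger transcription factor PLZF. It had 0 counts in all 43 Live-seq and 44 scRNA-seq ASPC_Pre cells, which allows a share of cells with a count of up to 6.98% and 6.82%, taken as 3 over the number of cells (exact upper bounds 8.22% and 8.04%). After the cocktail it reached 23.1 CPM in Live-seq (lowest and median cell 0, highest 171.4) and 24.4 CPM in scRNA-seq (0, 6.28 and 89.1), at least 122.4-fold and 198.3-fold higher against a floor of 3 counts in the summed ASPC_Pre cells. A count was seen in 12 of 37 Live-seq cells (32.4%) and in 23 of 35 scRNA-seq cells (65.7%), and in 21.6% and 40% after thinning. The groups overlapped only at 0. Across the 940 libraries of the series outside ASPC_Post, a single Zbtb16 count was found, in an IBA cell.

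Fkbp5 and Zbtb16 were both detected in 22 of 35 scRNA-seq and 9 of 37 Live-seq ASPC_Post cells, and in 0 ASPC_Pre cells of either technique. The median number of the 10 genes detected per cell was 7 before and 9 after in scRNA-seq, and 5 before and 7 after in Live-seq. After thinning these medians were 6 and 9, and 4 and 6.

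Tsc22d3 (chromosome X, 140539528 to 140600659, minus strand), known as GILZ, encodes a leucine zipper protein that mediates anti-inflammatory actions of glucocorticoids. Its Live-seq level was 50.7 CPM before (lowest cell 0, median 16.4, highest 588.3) and 250.2 CPM after (0, 137.7 and 1877), a ratio of 4.93 (4.57 to 5.33). In scRNA-seq it was 58.2 CPM before (0, 42.7 and 259.3) and 258.7 CPM after (0, 191.8 and 1594), a ratio of 4.45 (4.19 to 4.72). Only 4 of 37 and 12 of 35 ASPC_Post cells lay above all ASPC_Pre cells, although 30 of 37 and 28 of 35 exceeded the ASPC_Pre median.

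Per1 (chromosome 11, 69095217 to 69109960, plus strand) encodes a repressor of the circadian clock that glucocorticoids are known to induce. It was at 1.13 CPM before (lowest and median cell 0, highest 34.9) and 24.2 CPM after (0, 9.10 and 141.4) in Live-seq, a ratio of 21.4 (13.4 to 36.5). In scRNA-seq the values were 11.6 CPM before (0, 5.11 and 48.8) and 66.4 CPM after (0, 56.2 and 285.5), a ratio of 5.71 (5.01 to 6.52). The ASPC_Pre level in Live-seq came from 18 counts in 3 of 43 cells, 77.8% of them in 1 cell, so the Live-seq ratio has a small base. Of the ASPC_Post cells, 10 of 37 and 18 of 35 stood above the highest ASPC_Pre cell.

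Sgk1 (chromosome 10, 21882184 to 21999903, plus strand), whose promoter window with facing hexamers is printed among the sequences, encodes a serum- and glucocorticoid-regulated kinase. In Live-seq it was at 85.8 CPM before (lowest cell 0, median 1.35, highest 664.8) and 453.7 CPM after (0, 297.1 and 2182), a ratio of 5.29 (4.99 to 5.61). In scRNA-seq it was at 160.7 CPM before (0, 103.2 and 590.4) and 383.2 CPM after (0, 280.9 and 1466), a ratio of 2.38 (2.29 to 2.48). The groups overlapped, with 9 of 37 and 11 of 35 ASPC_Post cells above the highest ASPC_Pre cell.

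Errfi1 (chromosome 4, 150853919 to 150868892, plus strand) encodes an inhibitor of the EGF receptor. Live-seq gave 468.03 CPM before (lowest cell 0, median 310.9, highest 2887) and 1564 CPM after (0, 1448 and 5164), a ratio of 3.34 (3.26 to 3.43). The scRNA-seq cells gave 447.8 CPM before (0, 252.3 and 2128) and 1175 CPM after (18.4, 1240.2 and 3562), a ratio of 2.62 (2.56 to 2.69). Few cells left the ASPC_Pre range, 6 of 37 and 5 of 35. The antisense gene 1700045H11Rik shares its locus.

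Hsd11b1 (chromosome 1, 193221634 to 193264075, minus strand) encodes the enzyme that regenerates active glucocorticoid from its inactive keto form inside the cell. Its level was 8.30 CPM before (lowest and median cell 0, highest 150.6) and 43.2 CPM after (0, 0 and 429.7) in Live-seq, a ratio of 5.21 (4.32 to 6.32). In scRNA-seq it was 8.10 CPM before (0, 0 and 152.6) and 47.1 CPM after (0, 19.7 and 333.5), a ratio of 5.82 (4.97 to 6.83). More cells held a count after the cocktail, 45.9% against 11.6% in Live-seq and 62.9% against 31.8% in scRNA-seq, while only 4 of 37 and 1 of 35 exceeded the highest ASPC_Pre cell. Lamb3 and 4930570N18Rik overlap it on the opposite strand.

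Mt1 (chromosome 8, 94179082 to 94180327, plus strand) and Mt2 (chromosome 8, 94172664 to 94173568, plus strand) encode metallothioneins, small proteins that bind zinc and copper and whose genes respond to metals as well as to glucocorticoids. They lie 5513 bases apart, and Gm45774 overlaps Mt2 on the opposite strand. Mt1 stood at 523.4 CPM before (lowest cell 70.96, median 405.8, highest 1641) and at 3377 CPM after (501.7, 3092 and 7838) in Live-seq, a ratio of 6.45 (6.31 to 6.60). In scRNA-seq Mt1 was at 502.5 CPM before (36, 417.98 and 1713) and 3479.5 CPM after (793.1, 3125 and 9112), a ratio of 6.92 (6.79 to 7.06). Every cell of the 4 groups held an Mt1 count, and 30 of 37 and 29 of 35 ASPC_Post cells were above all ASPC_Pre cells.

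Mt2 was at 53.4 CPM before (lowest cell 0, median 43.1, highest 243.2) and 550.95 CPM after (102.2, 496.6 and 1169) in Live-seq, a ratio of 10.3 (9.62 to 11.1). The scRNA-seq levels were 52.7 CPM before (2.83, 40.2 and 162.9) and 638.4 CPM after (47.3, 518.4 and 1815), a ratio of 12.1 (11.4 to 12.9). Mt2 had the least overlap of the 10 genes, since 33 of 37 and 32 of 35 ASPC_Post cells exceeded every ASPC_Pre cell. Together the metallothioneins took 0.0577% of the kept counts before and 0.393% after in Live-seq, and 0.0555% and 0.412% in scRNA-seq. Mt1 had 9.81 counts for each Mt2 count before and 6.13 after in Live-seq, and 9.54 and 5.45 in scRNA-seq.

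Within a group, Mt1 and Mt2 varied together across cells. As a description, Pearson's r of log2(CPM + 1) was 0.653 in the 43 Live-seq ASPC_Pre cells and 0.945 in the 37 ASPC_Post cells, and 0.773 and 0.952 in the 44 and 35 scRNA-seq cells, where both genes of a cell share its library and depth. The lower values belong to the groups where Mt2 counts were fewest.

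**Figure D2:**
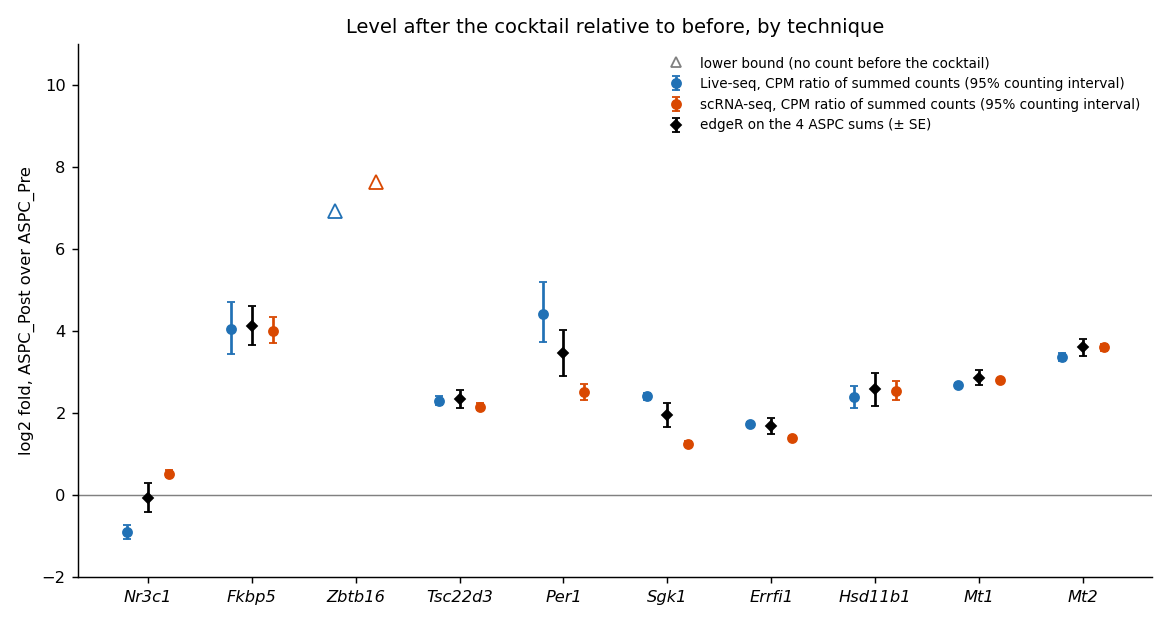
Level after the cocktail over the level before for each gene, as log2 fold. Circles are CPM ratios of the summed counts of Live-seq batch 9_4 (blue) and scRNA-seq batch 9_1 (orange) with 95% counting intervals, open triangles are lower bounds for Zbtb16 and black diamonds are edgeR values on the 4 sums ± SE. The intervals of the techniques overlap for Fkbp5 and are far apart for Nr3c1, which lies at 0.533 in Live-seq and 1.44 in scRNA-seq.

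Counts were summed per technique, batch and cell state for testing, and edgeR's quasi-likelihood test with Benjamini-Hochberg adjustment was applied to 27 such sums, with batch as a block and 15 residual degrees of freedom. A gene was called at an adjusted p under 0.05 and an absolute log2 fold change over 1. ASPC_Post had 1 sum per technique, and no source says that batches were separate isolations, so the spread between sums may be technical in part. In this test 0 of the 10 genes were called at the induction, and 0 of 13565 genes overall (0%). Zbtb16 is left aside in the next count, since it entered the test only through ASPC_Post, where it is high. Without adjustment, 2 of the other 9 (Mt1 and Mt2) and 600 of all genes were under 0.05, and other tools called 99 (DESeq2) and 29 (the edgeR 4 form of the test) of all genes. Mt1 came nearest among the 10, at a log2 fold change of 3.40 (SE 0.60, edgeR adjusted p = 0.0723). No gene had a lower adjusted p, though others may share this value. Mt2 followed at 4.20 (SE 0.83, edgeR adjusted p = 0.0956), and Zbtb16 had an edgeR adjusted p of 0.65. The other 7 genes had an adjusted p of 1, with log2 fold changes from -0.20 (SE 1.47) for Nr3c1, which turned positive with RLE scaling (0.0359), to 3.95 (SE 1.93) for Fkbp5. DESeq2 called Mt1 (adjusted p = 3.42e-05) and Mt2 (adjusted p = 3.71e-05).

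The same test on the 4 ASPC sums of batches 9_1 and 9_4 alone leaves the spread of the cell lines out and has 1 residual degree of freedom, so it measures only how closely the techniques repeat each other. With Zbtb16 again left aside, it called 8 of the other 9 genes higher after the cocktail, beside 5.12% of the 13006 genes tested, and 0 lower, beside 3.91%. The genes were chosen with earlier results of these data known, so these counts describe them and are no test of the group. Nr3c1 was not called, at a log2 fold change of -0.07 (SE 0.35, edgeR adjusted p = 0.938). The called genes ran from Errfi1, at 1.68 (SE 0.19, edgeR adjusted p = 0.000631), to Fkbp5, at 4.13 (SE 0.47, edgeR adjusted p = 0.000624), while the fold of Zbtb16 can be given only as the lower bounds above. Mt2, at 3.60 (SE 0.21, edgeR adjusted p = 1.78e-05), and Mt1, at 2.86 (SE 0.18, edgeR adjusted p = 2.56e-05), had the lowest adjusted p of the 10. Per1 had the largest error of the called genes that were detected before the cocktail, 3.47 with an SE of 0.56 (edgeR adjusted p = 0.00458). The median over all genes tested was 0.01.

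Whether the induction differed between techniques was tested as an interaction in the 27 sums, with 11 residual degrees of freedom. It called 0 of the 10 genes and 0 of 13565 genes (0%) by edgeR, with 0 of the 10 and 66 of all genes under 0.05 before adjustment and 45 called by DESeq2. The difference, scRNA-seq minus Live-seq, was 1.91 on the log2 scale for Nr3c1 (SE 3.15) and -1.57 for Per1 (SE 3.13). It was -1.46 for Tsc22d3 (SE 2.80), -1.23 for Sgk1 (SE 3.72), -0.65 for Mt1 (SE 1.34) and -0.39 for Mt2 (SE 1.77). Over all 13565 genes the median difference was -0.34, and 37.6% of genes were above 0. For Mt1 and Mt2 the negative sign, shared with that median, is opposite to that of the CPM ratios in batches 9_1 and 9_4. Those ratios are higher in scRNA-seq, and the model also holds the ASPC_Pre sums of batch 8_8. These errors are wide enough that a difference of several fold could not have been detected. By counting error alone, the intervals of the ratios did not overlap for Nr3c1, Per1, Sgk1, Errfi1, Mt1 and Mt2, with the Live-seq ratio lower for Nr3c1, Mt1 and Mt2 and higher for Per1, Sgk1 and Errfi1. The techniques differ in handling, since Live-seq extracts were drawn at room temperature and scRNA-seq cells were trypsinized, kept on ice and sorted. Live-seq cells also received fresh medium shortly before extraction, with the agents again for ASPC_Post. The study describes no such exchange for the scRNA-seq cells. These differences cannot be told apart from technique or batch.

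The 9 progenitors that the labels pair before and after the cocktail are part of the Live-seq cells of batch 9_4 and so do not add independent support. Their barcodes were not read here, so the pairing rests on the labels. The study counts 8 such pairs with matching barcodes, fewer than the 9 that the labels give. The sources do not say which labelled pair the study leaves out. Mt2 was higher after in 9 of 9 cells, from a median of 11.9 CPM (lowest 0, highest 243.2) to 814.9 CPM (102.2 and 1001.4). Mt1 was higher in 8 of 9, from a median of 387.5 CPM (90.1 and 1641) to 4373 CPM (501.7 and 5637). The exception had 705.9 CPM of Mt1 before and 501.7 CPM after. Sgk1 was higher in 7 cells and lower in 1, and Tsc22d3 and Errfi1 were each higher in 6 and lower in 3. Nr3c1 was lower in 6 cells, higher in 2 and without a count on both occasions in 1. The genes with sparse counts could be followed in few cells, since Fkbp5 and Zbtb16 were both without a count in 7 of 9 cells at both times and were higher in the other 2. Per1 was higher in 4 and lower in 1, and Hsd11b1 higher in 3 and lower in 2.

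**Figure D3:**
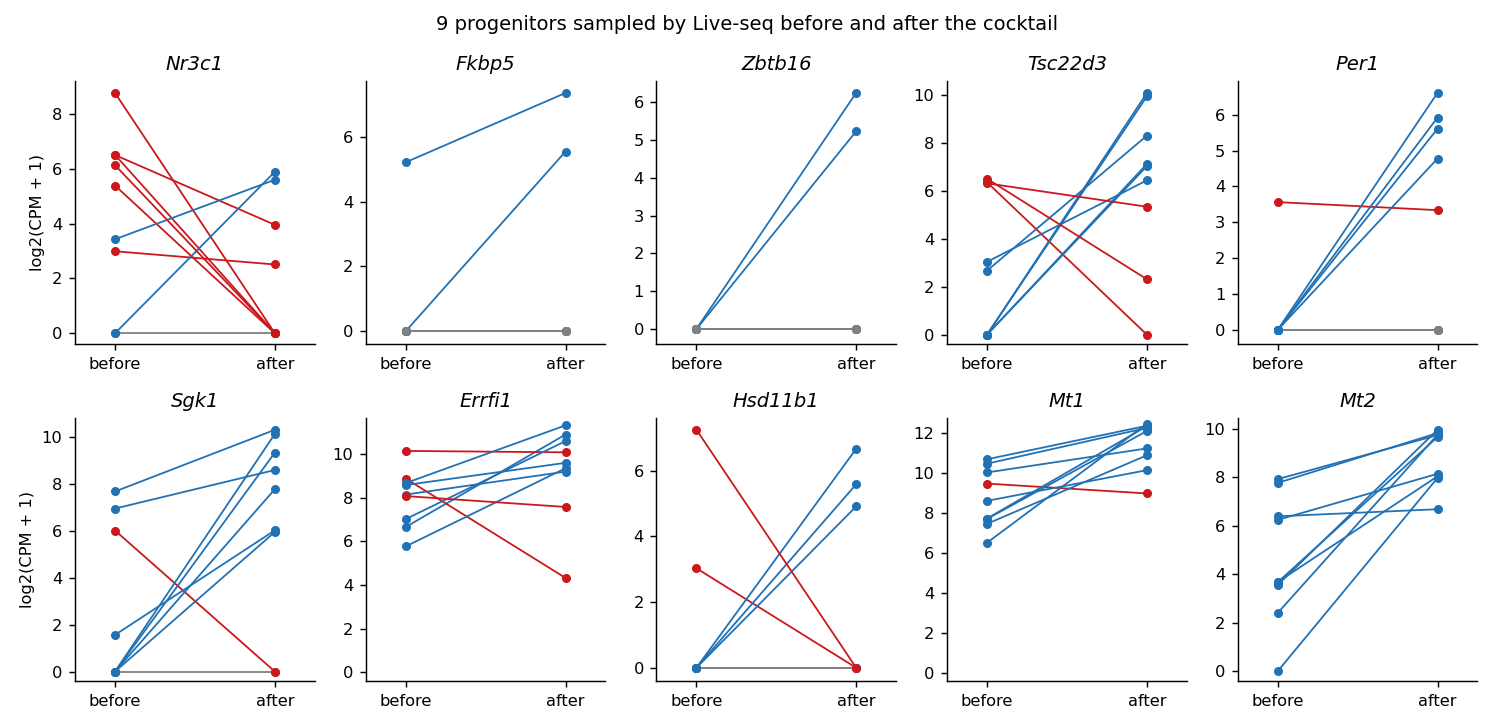
Level of the 10 genes, as log2(CPM + 1), in 9 ASPCs that the labels pair as sampled by Live-seq before and after the cocktail. Each line is a cell, blue where it was higher after, red where it was lower and grey where it had no count at both times. The Mt2 lines go up in 9 of 9 cells and the Nr3c1 lines go down in 6.

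The level of each gene in the other cells of the series puts these shifts in scale. Across ASPC_Pre, IBA, RAW_Mock and RAW_LPS sums, Mt1 ranged from 32.2 to 813.1 CPM, below both ASPC_Post values of 3377 and 3479.5 CPM. For Sgk1, in contrast, ASPC_Pre batch 8_8 of Live-seq (826.7 CPM) and IBA sums (up to 604.3 CPM) lay above the ASPC_Post levels. In that ASPC_Pre sum, however, 1 of 18 cells (7428 CPM) held 63.5% of the Sgk1 counts, and the median cell was at 50.4 CPM. Errfi1 in that same batch (2325 CPM) exceeded its ASPC_Post levels as well, with 23.3% of its counts in 1 cell. That batch stands apart from 9_4, since its 18 ASPC_Pre cells had 0 counts of Hsd11b1 and 32.2 CPM of Mt1, while the 16 cells of scRNA-seq batch 8_8 had 444.2 CPM of Errfi1, 345.99 CPM of Sgk1 and 136.6 CPM of Mt1. Without Live-seq batch 8_8 the induction values were 1.77 for Errfi1 and 1.88 for Sgk1 on the log2 scale, against 1.40 and 1.63 with it, and the count of called genes was again 0. The ASPC_Post batches moved these values further. Without Live-seq batch 9_4 the log2 values were 0.68 for Errfi1, 0.74 for Sgk1 and 1.27 for Tsc22d3, and without scRNA-seq batch 9_1 they were 1.85, 2.12 and 3.07. Some RAW sums of Live-seq also lay above the ASPC_Post levels of that technique, 23.8 CPM for Fkbp5 and 24.2 CPM for Per1. Fkbp5 was at 0 to 46.8 CPM in RAW_Mock beside batch 6 (889.3 CPM, from 1 cell), and 0 to 31.4 CPM in RAW_LPS. In the sums at 46.8 and 31.4 CPM, 1 cell held 85.2% and 67.9% of the Fkbp5 counts. In RAW_Mock batch 8_8 (30.035 CPM) the top cell held 18.6%. Per1 was at 0.639 to 39.5 CPM in RAW_Mock and 0 to 44.5 CPM in RAW_LPS. In each RAW sum above 24.2 CPM of Per1, 1 cell held 65.4% to 79.8% of the counts. In scRNA-seq, other groups reached at most 47.5 CPM of Fkbp5 and 47.3 CPM of Per1, below ASPC_Post (60.8 and 66.4 CPM).

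**Figure D4:**
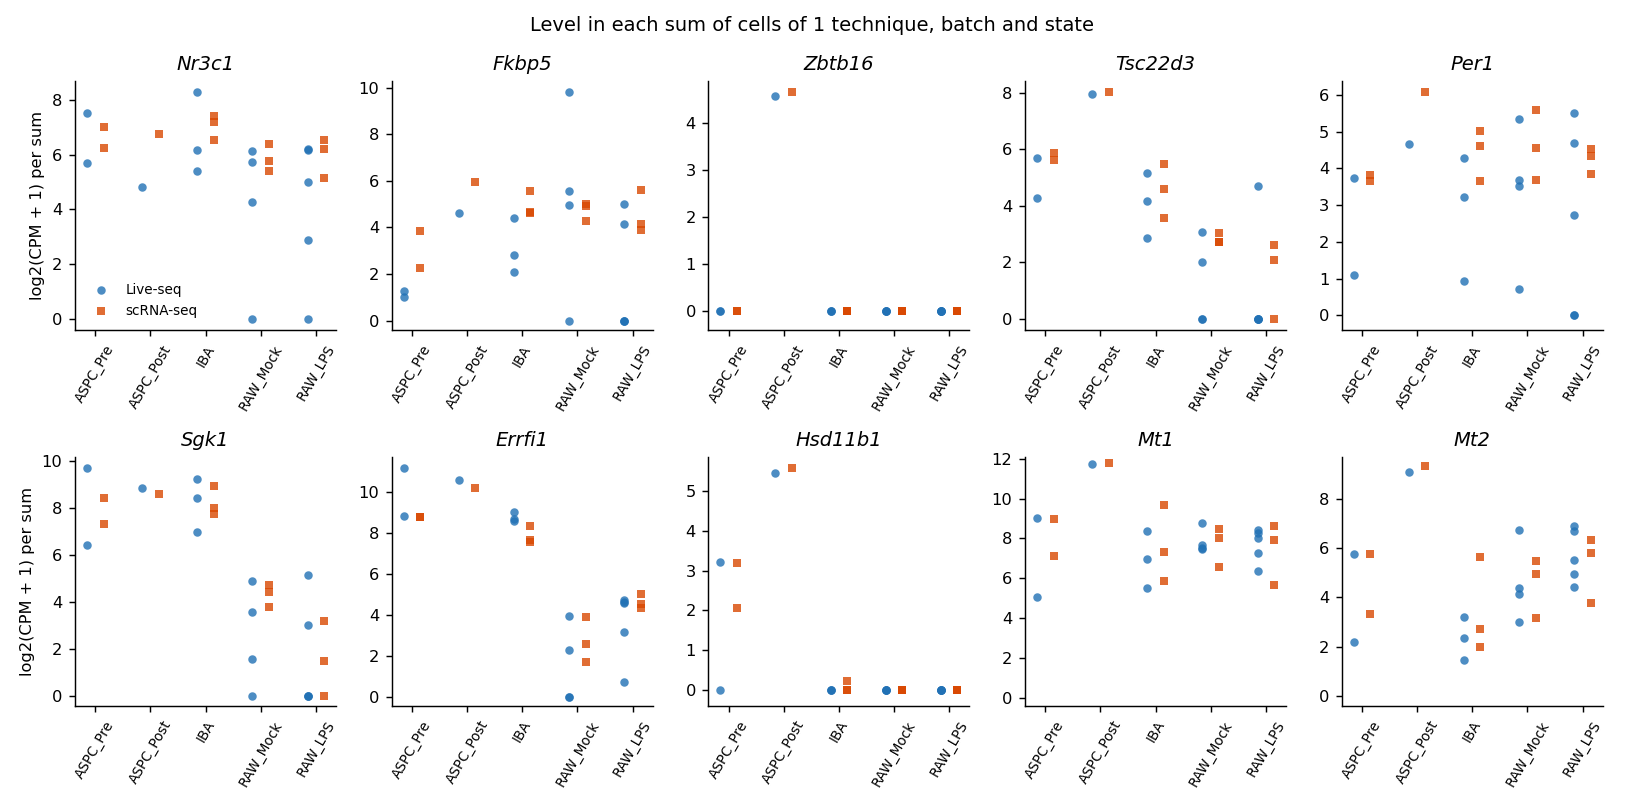
Level of the 10 genes, as log2(CPM + 1), in each sum of cells of 1 technique, batch and state, for ASPC_Pre, ASPC_Post, IBA, RAW_Mock and RAW_LPS. Blue circles are Live-seq and orange squares scRNA-seq. Hsd11b1 and Zbtb16 lie at or near 0 outside the ASPCs, and Mt1 and Mt2 are highest in ASPC_Post.

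ASPC_Pre and IBA compare primary progenitors of white fat with a line from brown fat. Hsd11b1 was at 0 to 8.30 CPM in ASPC_Pre and had 5 counts in 1 scRNA-seq IBA cell and 0 in 44 Live-seq IBA cells, a log2 difference of 6.86 (SE 1.66, edgeR adjusted p = 0.0572). Fkbp5 was lower in ASPC_Pre than in IBA in each of 4 batches, at 0.998 to 1.45 CPM against 6.02 to 19.99 CPM in Live-seq and 3.78 to 13.4 against 24.2 to 46.1 in scRNA-seq, with a log2 difference of -2.25 (SE 1.54). Tsc22d3 and Errfi1 were higher in ASPC_Pre in 4 of 4 batches, by 1.75 (SE 1.10) and 1.49 (SE 0.93). None of the 9 genes with a count in either group was called by edgeR, against 4.95% of all genes, and 1 of them, Hsd11b1, which passed the filter only through the progenitors, had an unadjusted p under 0.05. DESeq2 called 0 of them and the edgeR 4 form of the test called Hsd11b1. Zbtb16 had no count in either.

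ASPC_Pre and RAW_Mock compare progenitors with macrophage-like cells. Hsd11b1 entered this test only through the progenitors, so it is left aside in the count. Of the other 9 genes 3 were called higher in ASPC_Pre and 0 lower, against 19.7% of all genes called higher. Errfi1 was at 444.2 to 2325 CPM in ASPC_Pre against 0 to 14.7 CPM in RAW_Mock, a log2 difference of 8.03 (SE 1.18, edgeR adjusted p = 3.78e-05). Sgk1 was at 85.8 to 826.7 CPM against 0 to 28.4 CPM, a difference of 4.82 (SE 1.31, edgeR adjusted p = 0.00821), and Tsc22d3 at 18.2 to 58.2 CPM against 0 to 7.36 CPM, a difference of 3.96 (SE 1.16, edgeR adjusted p = 0.0141). Hsd11b1 had 0 counts in 260 RAW_Mock cells and was called (edgeR adjusted p = 0.00722), but was lost with DESeq2 (adjusted p = 0.241). Without scRNA-seq batch 9_1 the adjusted p was 0.147 for Hsd11b1 and 0.0502 for Sgk1, and without Live-seq batch 9_4 it was 0.0586 for Tsc22d3. Fkbp5 was at -3.32 (SE 1.68, edgeR adjusted p = 0.159), and its highest Live-seq level in RAW_Mock, in batch 6, came from 1 of 8 cells, which held all 1391 counts.

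RAW_LPS against RAW_Mock shows the genes under an inflammatory stimulus without added glucocorticoid. None of the 8 genes with a fold was called by edgeR, DESeq2 or the edgeR 4 form of the test, against 0.199% of all genes by the first, and Errfi1 alone had an unadjusted p under 0.05. Errfi1 was at 19.6 to 32.2 CPM in RAW_LPS against 2.31 to 13.98 CPM in RAW_Mock by scRNA-seq, and at 0.709 to 25.9 CPM against 0 to 14.7 CPM by Live-seq. In Live-seq batch 6 the order was turned, at 0.709 CPM in RAW_LPS (1 count) against 14.7 CPM in RAW_Mock, where all 23 counts came from 1 of 8 cells. Over both techniques the log2 difference was 2.27 (SE 0.89, edgeR adjusted p = 0.419). Tsc22d3 was at -2.32 (SE 1.13) and Sgk1 at -2.29 (SE 1.31).

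Other genes of the glucocorticoid pathway and of the other agents were read from lists of known members, with counts from the 4 ASPC sums. In the fit of all 27 sums, 0 genes of any list were called by edgeR. Lists are described by counts, beside 5.12% of all genes called higher and 3.91% lower. The size given for a list is the number of its genes tested, without those that failed the filter on low counts. The lists share genes, so their counts are not separate. Angptl4, for example, is counted as called higher among both the glucocorticoid-induced genes and the PPARG targets. Foxo1 is counted so among both the glucocorticoid-induced and the insulin genes. Of 10 receptor chaperones none was called in either direction, with a median log2 fold change of -0.25 and Hsp90aa1 at 0.29 (SE 0.19, edgeR adjusted p = 0.369). Of 11 coregulators and related receptors 5 were called higher and 0 lower, led by Nrip1, a corepressor, from 7.86 to 20.8 CPM in Live-seq and from 15.8 to 60.7 in scRNA-seq, and Crebbp, an acetyltransferase, from 16.3 to 62.3 and from 47.9 to 121.8. Of 4 genes of glucocorticoid metabolism and export 1 was called in each direction. H6pd, which supplies the NADPH that the Hsd11b1 enzyme uses, went from 54.8 to 197.7 CPM in Live-seq and from 79.6 to 320.8 in scRNA-seq. Akr1c18, a steroid dehydrogenase, went from 97.6 to 21.5 and from 59.6 to 10.3.

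Of 21 other genes known to be induced by glucocorticoids 9 were called higher and 2 lower, with a median log2 fold change of 1.13. Klf15, a transcription factor, went from 1.57 to 22.1 CPM in Live-seq and from 0.822 to 26.2 in scRNA-seq, a log2 fold change of 4.51 (SE 0.62). Serpina3n, a secreted protease inhibitor, went from 33.3 to 317.8 CPM and from 32.1 to 228.3. Tgm2, a transglutaminase, and Cdkn1a, a cell cycle inhibitor, were the members called lower, at -3.27 (SE 0.53) and -1.57 (SE 0.18). Of 13 inflammatory and matrix genes known to be repressed 5 were called lower and 1 higher, with a median of -0.88. Il6 went from 18.3 CPM to 0 counts in Live-seq and from 17.4 to 0.523 CPM in scRNA-seq, and the chemokine gene Cxcl5 from 31.1 to 7.51 and from 43.5 to 4.24 CPM. The matrix protease gene Mmp3 was called higher, from 375.4 to 1139 CPM in Live-seq and from 352.98 to 483.7 in scRNA-seq.

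Metal response genes beside Mt1 and Mt2 counted 5, of which the zinc importer genes Slc39a14 (2.74, SE 0.52) and Slc39a6 (1.31, SE 0.22) were called higher and 0 lower. Of 15 clock genes beside Per1, Rora was called higher (1.20, SE 0.22), and Dbp (-2.21, SE 0.53) and Nr1d2 (-1.39, SE 0.37) lower. Of 10 cyclic AMP targets, which IBMX is known to raise, 3 were called higher, led by Pde3b (3.58, SE 0.96) and Nr4a3 (2.82, SE 0.65). Of 20 PPARG targets listed 13 were tested, and Adipoq, Plin1 and Cd36 were among those that failed the filter on low counts. Of these 13, 4 were called higher, led by the fatty acid binding protein gene Fabp4 (4.79, SE 0.28) and Cebpa (3.83, SE 0.81). Fabp5 was called lower (-3.11, SE 0.54). Of 12 insulin and IGF genes 5 were called higher, led by Irs2 (4.20, SE 0.74) and Foxo1 (2.14, SE 0.47), and Igf1 lower (-1.17, SE 0.24). Of 11 immediate early and heat shock genes, read as a sign of handling, Egr1 (1.84, SE 0.32) and Fos (1.55, SE 0.29) were called higher. Their part in the results was not tested.

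**Figure D5:**
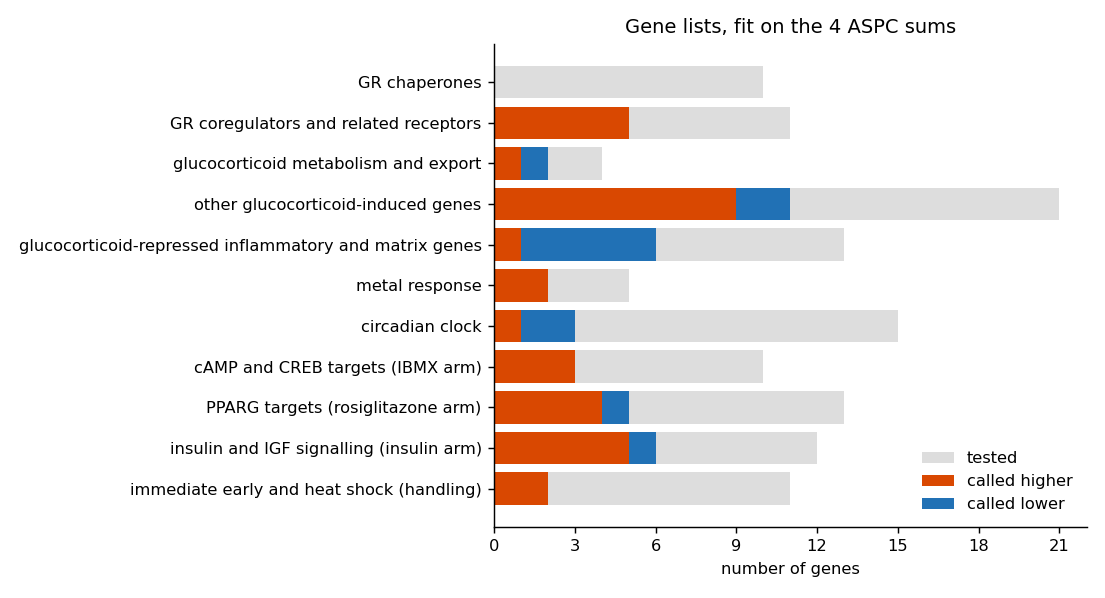
Number of genes tested (grey), called higher (orange) and called lower (blue) after the cocktail for 11 gene lists, from edgeR on the 4 ASPC sums. The glucocorticoid-induced list holds 9 higher and 2 lower of 21, the repressed list 1 higher and 5 lower of 13, and the chaperones none.

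Markers put the cells of batches 9_1 and 9_4 with mesenchymal progenitors. The 10 mesenchymal markers summed to 11903 to 19286 CPM, with none at 0. The 6 endothelial markers summed to at most 1.56 CPM with Cdh5 and Tie1 at 0, and the 4 mural markers to at most 19.98 CPM. The 10 macrophage markers were lower after the cocktail, at 86 and 22.6 CPM before and after in Live-seq and at 54.99 and 37.4 CPM in scRNA-seq, with Tyrobp at 0. The mature adipocyte markers summed to at most 0.929 CPM with Adipoq at 0. The 4 mesothelial markers moved with the cocktail, from 36.8 to 0.0626 CPM in Live-seq and from 39.4 to 0.290 in scRNA-seq, nearly all of it Krt19. The part of the macrophage and mesothelial markers in the results was not tested.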

How the data were processed

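RNA was measured in 1012 single-cell libraries by Live-seq and scRNA-seq. The authors deposited raw counts per gene. They used bcl2fastq 2.19.1, the aligner STAR 2.6.1c with mm10 and, for uniquely mapped reads, HTSeq without regard to strand. Groups and batches came from the labels. From these counts, 84 ribosomal protein and 20 negative-control genes were left out, and CPM was scaled to the rest. Cells of 1 technique, batch and state (at least 3 cells) were summed, which gave 27 sums. A gene entered if 15% of the cells of some scRNA-seq group held 2 counts or more and it passed filterByExpr (minimum count 2, minimum proportion 0.05). edgeR 4.0.16 (R 4.3.3, TMM, quasi-likelihood test, Benjamini-Hochberg) was fitted to state and technique-batch, and DESeq2 1.42.0 was an alternative. The batch named in the labels is the block. Over 31 pairs of sums of a batch, the correlation of their deviations was -0.04 to 0.45 (median 0.11). No libraries had identical counts.

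The 10 genes, the gene lists and the rule for naming list genes (up to 2 called genes in each direction, by size of change) were chosen with earlier results of these data known. Positions were taken from GENCODE vM21 (GRCm38). Scripts were tested on simulated data. Each cell was thinned to 50000 kept counts where shares of cells are compared at an equal number of reads, which need not be an equal number of molecules. A floor of 3 counts stands for 0 in bounds. Other settings included RLE scaling, no low-count filter, no block and leaving out each batch.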

Additional observations from a re-analysis of the deposited data

Results flagged for a closer look

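In 20 sets of 4 or 5 Live-seq sums of the 10 genes in RAW_Mock and RAW_LPS, 5 sums lay far from the others by Dixon's criterion, which chance alone meets in about 1 of 20 groups of normally distributed values. That rate does not carry over here, because 4 of the sets were at 0 in every sum and could not meet it, and in other sums 1 cell held most of the counts. Fkbp5 in RAW_Mock batch 6 was at 889.3 CPM, against 0 to 46.8 CPM in the other batches, and all 1391 counts came from 1 of 8 cells. The same batch was highest for Mt1, at 432.8 CPM against 176.8 to 199.3, and for Mt2, at 106.1 CPM against 6.94 to 19.9. Sgk1 in RAW_LPS batch 7 was at 34.1 CPM against 0 to 7.12, with 90.9% of the counts in 1 of 16 cells. Tsc22d3 in RAW_LPS batch 5Reseq was at 25.03 CPM against 0 in every other batch, with 94.6% of the counts in 1 of 11 cells. The cells of that batch were wild-type RAW264.7 and those of the other batches RAW-G9, so batch and line cannot be told apart.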

How the results depend on the processing

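Of 700 alternative log2 fold changes of the 10 genes, 91% kept their direction and their side of the threshold, 25 passed it newly, 4 lost it and 34 changed sign. Of all genes tested at the induction (0% called), 0.0663% were called with RLE, 0.73% with DESeq2, 0.0103% without a low-count filter, 0.214% with the edgeR 4 test, 0.0075% with thinned cells, 0.022% with ribosomal and negative-control genes kept, 9.03% on the 4 ASPC sums, and 0 to 0.0958% when a batch was left out (the highest without Live-seq batch 6). Mt1 passed in 6 of 18 alternatives, Mt2 in 4, Nr3c1 in none, and each of the others in 1, the 4 ASPC sums. ASPC_Pre against IBA (4.95%) gave 8.57% with DESeq2, 14.9% with the edgeR 4 test and 0.487% (without Live-seq batch 9_4) to 7.73% (without Live-seq batch 6) with a batch left out. Against RAW_Mock (28.3%), leaving out a batch gave 15% (without scRNA-seq batch 9_1) to 31.7%. RAW_LPS against RAW_Mock (0.199%) gave 3.27% with DESeq2, 0.217% of more genes without the filter, 2.24% with the edgeR 4 test, 0.923% with thinned cells and 0.0369% (without Live-seq batch 9_4) to 0.612% (without Live-seq batch 6) with a batch left out. The interaction (0%) gave 0.332% with DESeq2, and could not be estimated without Live-seq batch 9_4 or scRNA-seq batch 9_1. Hsd11b1 passed against IBA with RLE, without the block, with the edgeR 4 test and without Live-seq batch 6 or 7 (adjusted p 0.0135 to 0.049), and Fkbp5 passed as lower than RAW_Mock without the block (adjusted p = 0.0427), with the edgeR 4 test (0.0416) and thinned (0.0499). The causes were not tested.

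Without the replicate block, 0% (induction), 5.12% (IBA), 27% (RAW_Mock), 0.243% (LPS) and 0% (interaction) of genes were called. The sign then changed for Mt1 (0.63) and Mt2 (0.19) against RAW_Mock, for Nr3c1 (0.26), Tsc22d3 (0.49), Per1 (0.0185) and Mt1 (0.02) under LPS, and for Per1 (0.33), Sgk1 (0.39) and Errfi1 (1.02) in the interaction.

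The other sign changes were in values near 0 or with wide errors. At the induction Nr3c1 was 0.0359 with RLE, 0.0382 with DESeq2, 0.65 in scRNA-seq alone and -1.18 to 0.38 with a batch left out, above 0 without Live-seq batch 8_8 (0.08) or 9_4. Against IBA, Sgk1 was -0.0362 with the edgeR 4 test, -0.1955 thinned and -0.22 to 0.62 with a batch left out, Nr3c1 -0.99 to 0.33, Mt1 -0.39 to 0.47 and Per1 -0.73 to 0.11. Against RAW_Mock, Mt2 was 0.0012 with DESeq2, 0.0809 with the edgeR 4 test, 0.0606 thinned and -1.28 to 0.40 with a batch left out, and Mt1 -1.06 to 0.23. Under LPS, Nr3c1 was -0.64 to 0.11. In the interaction Zbtb16 was 1.28 with DESeq2, Fkbp5 0.30 thinned, and Mt1 -0.80 to 0.14 and Mt2 -0.68 to 0.41. Most Live-seq cells before the cocktail had no count of Zbtb16, Hsd11b1, Fkbp5 and Per1, and the part of depth in this was not tested.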

Other observations

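IBA cells profiled by scRNA-seq without an extraction (70 control cells), or 1 h (49 cells) or 4 h (43 cells) after a Live-seq extraction, come from batch 8_1 and have no replicate, so the values are given without a test. Sgk1 stood at 563.2, 903.2 and 349.5 CPM, Errfi1 at 133.4, 95.9 and 55.9 CPM, and Tsc22d3 at 21.3, 34.2 and 28.4 CPM in the control, 1 h and 4 h cells. Nr3c1 was at 104.8, 121.6 and 100.96 CPM, Fkbp5 at 27.1, 25.4 and 18.6 CPM and Per1 at 9.30, 7.61 and 11.8 CPM. Mt1 was at 46.4, 49.95 and 70.6 CPM and Mt2 at 2.62, 4.52 and 4.97 CPM. Hsd11b1 had 0 counts in all 3 groups, and Zbtb16 had 1 count, at 4 h.

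Across the 27 sums the genes whose log2(CPM + 1) was most like that of Zbtb16 were Sdk1 (Pearson's r 0.99), Tmem100 (0.98), Serpina3m (0.97), Gm15844 (0.97) and Fmo2 (0.93), and most like that of Fkbp5 were C2cd2l (0.80), Mtif2 (0.79), Rrnad1 (0.78), Arhgef11 (0.78) and Fam217b (0.77). This is a description over sums that share batches and depth, and for Zbtb16 it rests on the ASPC_Post sums, the only ones of the 27 with a count.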
